A study of Saccharomyces cerevisiae with 6 samples.

Results

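The zinc finger factors Msn2 and Msn4 drive the general stress response of budding yeast, and 41 genes were taken here to describe it: both factor genes and 39 genes known as their targets or as part of the same response. The genes were chosen by symbol, and each of the 41 had 1 probe set on the array, out of 5449 yeast genes tested. They were read on 6 Affymetrix Yeast Genome 2.0 arrays of the ammonium transport mutant 26972c, which carries a mutated MEP1, lacks MEP2 and needs uracil. On 3 arrays, the controls, the cells held the empty vector pYES3. On the other 3 they held pYES3 with GmbHLHm1, a soybean basic helix-loop-helix (bHLH) transcription factor, behind a promoter that galactose switches on. Both groups had been grown from starter cultures on glucose and proline, washed, and moved for 12 h to galactose (2%) and ammonium (1 mM). The comparison asks which yeast transcripts differ when the soybean factor is present. The soybean transcript itself was not measured. The submitters call the 3 replicates of a group independent, but their tubes were seeded from starter cultures, so a p-value reflects the spread from culture to culture, and a difference between starters cannot be told apart from that between vectors. The arrays read whole cultures, so a change in every cell and one in some of the cells cannot be told apart either.

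In unstressed, fast-growing cells protein kinase A keeps Msn2 and Msn4 phosphorylated and in the cytoplasm. When glucose runs out, or under heat, oxidants or high salt, they enter the nucleus, bind the short stress response element and switch on a broad set of genes. Their products refold proteins, store trehalose and glycogen, remove peroxides and adjust metabolism. The factors are controlled mainly by where they sit in the cell, so their own transcript levels say little about their activity.

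Of the 41 stress genes 2 rose and 3 fell in GmbHLHm1 cells, and none changed 2-fold. This was 12.2% of them, the same share as in the background, where 12.1% of all 5449 genes passed the test, 7.45% higher and 4.64% lower. Of the 31 stress genes with a mean log2 of at least 13, 3 passed (9.68%), against 16.4% of the 414 genes in that range. The difference between these shares was not tested. GRX1 (glutaredoxin) and GAD1 (glutamate decarboxylase) rose, and YGP1 (a cell wall glycoprotein), CYC7 (the second isoform of cytochrome c) and SSA4 (a heat-induced Hsp70) fell. The log2 change of the other 36 genes lay between -0.28 and 0.32, and their 95% confidence intervals between -0.46 and 0.66. Genes were called with the two-sided moderated test of limma at a threshold of 0.05 after Benjamini-Hochberg adjustment over all genes. Without empty vector replicate 1, empty vector replicate 2 or GmbHLHm1 replicate 3 the count of 5 became 3, where 4.61%, 6.26% and 8.48% of all genes passed. Without GmbHLHm1 replicate 1 it became 9, where 13.3% of all genes and 18.1% of the bright genes (mean log2 of at least 13) passed. Centring each array on its median gave 2 higher and 7 lower, where 12.0% of all genes and 17.9% of the bright genes passed.

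**Figure D1:**
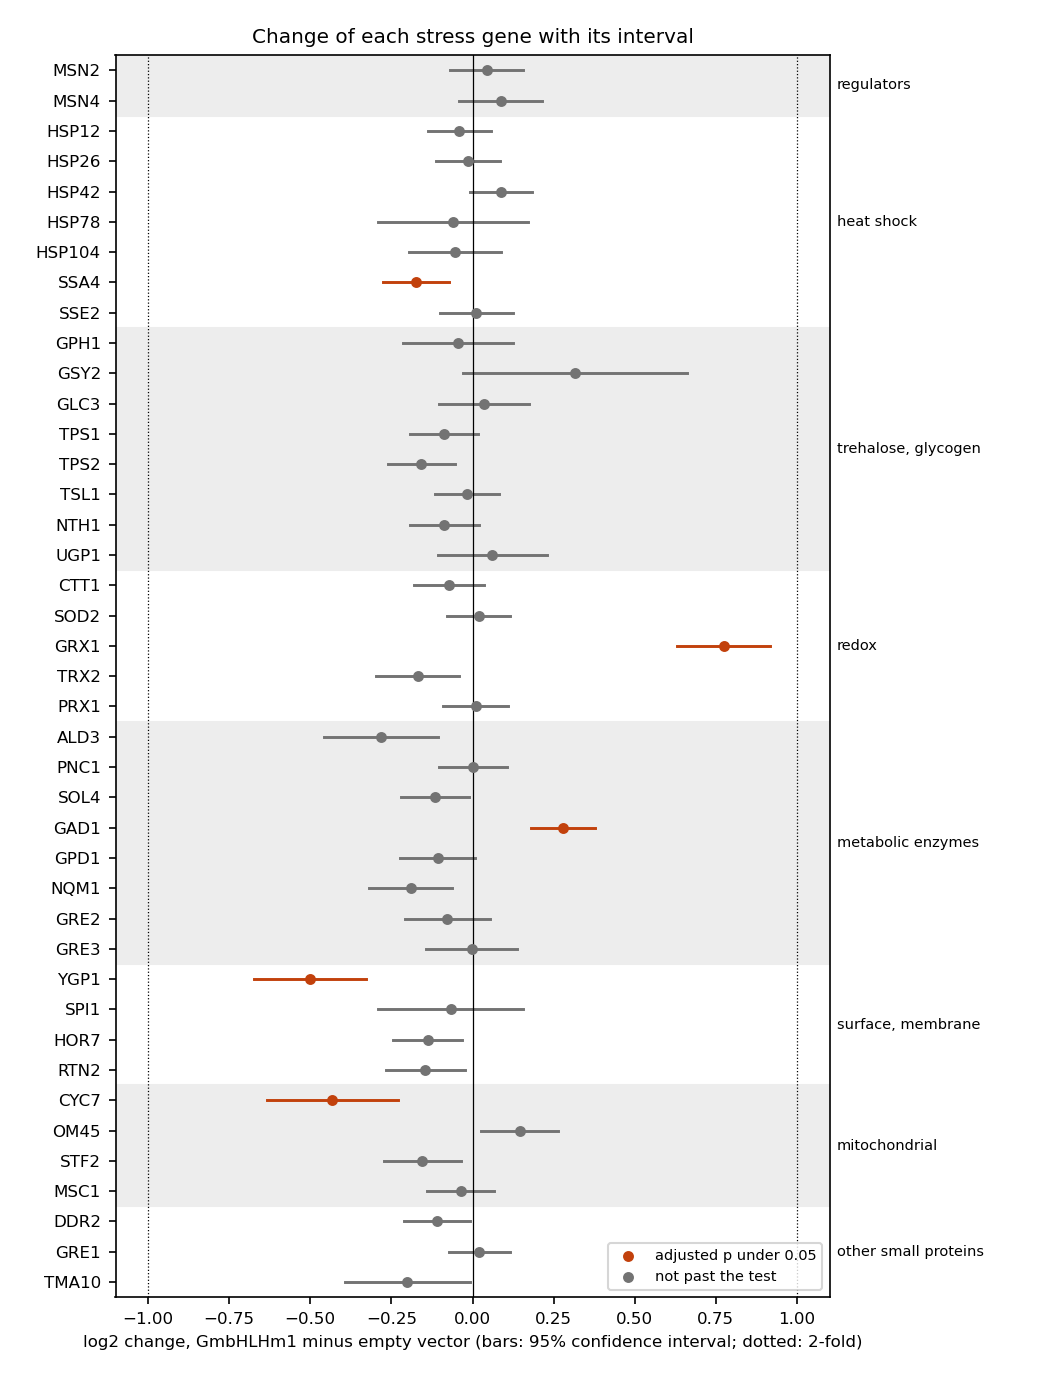
Log2 change of each of the 41 stress genes (x axis, GmbHLHm1 minus empty vector; 3 arrays per group) with its 95% confidence interval, grouped by role, with the 5 genes past the test in orange and dotted lines at a 2-fold change. The changes run from -0.50 for YGP1 to 0.77 for GRX1, and no interval reaches a dotted line.

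The deleted MEP2 lay below the arrays' background level on all 6 arrays. Even so its signal passed the test as lower, with a log2 change of -0.40 (adjusted p = 0.0433 with limma). The MEP2 call held in 3 of the 6 fits that left out 1 array. The galactose genes GAL1, GAL2, GAL7 and GAL10 did not pass the test, with log2 changes from -0.04 to 0.05. All 41 stress genes lay at least 5.10 log2 units above background on every array. Their signal was high: 31 of the 41 had a mean log2 intensity of at least 13, as did 414 of all genes, and 8 lay within 1 log2 unit of the brightest gene, which stood at 14.67 to 14.79. Signals near the top of the scale can understate a change, and the extent of this was not measured. URA3, a pyrimidine synthesis gene also used as a vector marker, rose by 1.35 (adjusted p = 0.0105 with limma), and MEP1, the mutated transporter gene, fell by 0.46 (adjusted p = 0.0109 with limma). The URA3 call was lost without empty vector replicate 1 (0.0533) and the MEP1 call without empty vector replicate 3 (0.052). Ribosomal RNA (18S and 25S, 16 probe sets) had a mean log2 of 9.13 ± 0.33 (SD, n = 3) with the empty vector and a difference of -1.14 with GmbHLHm1, with no overlap between the groups. The difference between the 3′ and 5′ probe sets of 7 control transcripts shifted by -0.26 to 0.04, with a median of -0.05. The part of these differences in the results was not tested.

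More of the 41 genes lay lower than higher without overlap between the groups, the 5 called genes included. In 18 genes (43.9%) all 3 GmbHLHm1 arrays lay below all 3 empty vector arrays, and in 6 genes (14.6%) all 3 lay above. Among the 36 genes that did not pass, 15 lay lower and 4 higher in this way. Over all genes these shares were 13.9% and 19.3%. Bright genes leaned the same way: among the 414 genes of mean log2 at least 13, 29.5% were lower without overlap, against 16 of the 31 stress genes in that range (51.6%). The median log2 change was -0.05 over the 41 genes, 0.02 over all genes and -0.02 over the 414. After median centring 21 of the 41 genes were lower without overlap, where the share was 19.3% of all genes and 43.7% of the bright genes. After quantile normalization of the tested genes it was 15 of the 41, with 18.4% of all genes and 26.1% of the bright genes. No test was made of these counts, and genes on the same arrays are not independent.

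**Figure D2:**
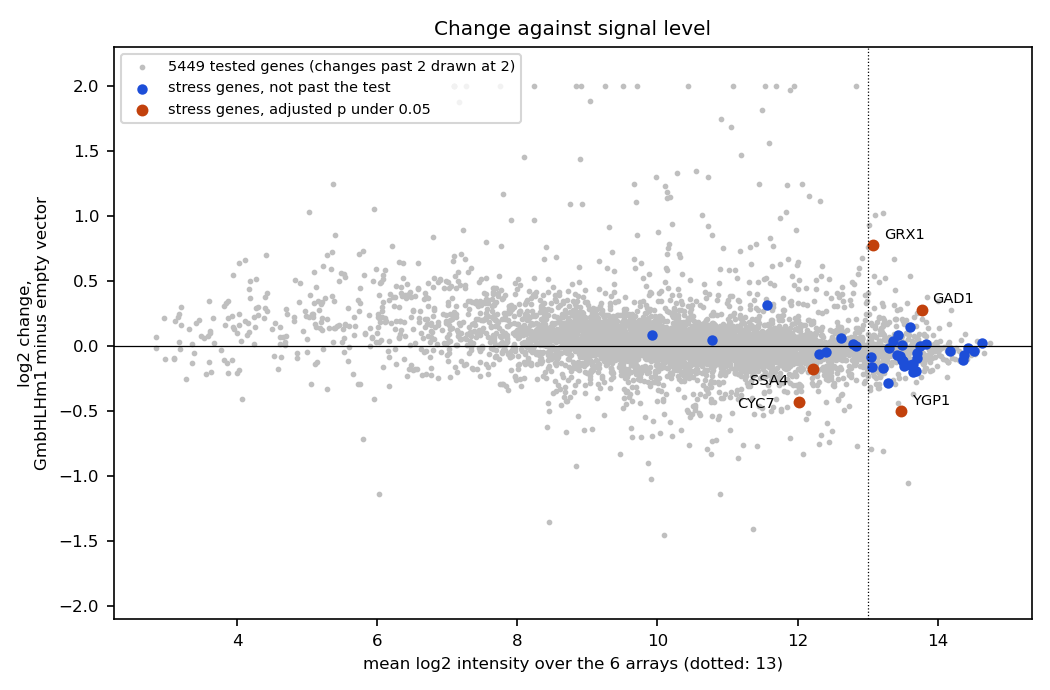
Log2 change (y axis, GmbHLHm1 minus empty vector) against the mean log2 intensity over the 6 arrays (x axis) for 5449 genes in grey (changes past 2 are drawn at 2), the 5 stress genes past the test in orange and the other 36 in blue. Of the 41 stress genes 31 lie to the right of the dotted line at 13. Of the 414 genes with a mean log2 of at least 13, these 31 included, 16.4% passed the test.

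The number of stress genes that passed depended on the fit. Over the stress genes the median SD within a group was 0.0242 (empty vector) and 0.0619 (GmbHLHm1) on the log2 scale, against 0.0502 and 0.0875 over all genes. Over the 414 bright genes it was 0.0254 and 0.0441, so the stress genes were not tighter than genes of like signal. The fit used throughout draws every gene toward 1 common spread. A limma fit with a trend and robust prior, in which that spread follows the signal level and genes of unusual spread weigh less, called 15 of the 41 genes, 3 higher and 12 lower. That fit called 15.0% of all genes and 32.4% of the 414 bright genes, and its trend and its robust prior were not run apart. The additional genes were TPS2, TRX2, ALD3, SOL4, NQM1, HOR7, RTN2, STF2 and DDR2, all lower, and OM45, higher, with log2 changes no larger than 0.28 in size. In the main fit these 10 genes did not pass.

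Neither regulator gene passed the test. MSN2 had log2 intensities of 10.73, 10.73 and 10.82 with the empty vector and 10.84, 10.78 and 10.80 with GmbHLHm1. The groups overlapped, and the log2 change was 0.04 with a 95% confidence interval of -0.07 to 0.16 (adjusted p = 0.605 with limma). MSN4, the partner factor that stress itself induces, measured 9.89, 9.82 and 9.92 against 10.04, 9.91 and 9.94. GmbHLHm1 replicate 1 was the highest array, the groups overlapped, and the log2 change was 0.09 (interval -0.04 to 0.21; adjusted p = 0.357 with limma).

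Of the 7 heat shock genes 1 fell and none rose, with a median log2 change of -0.04. For this and each later role, the share past the test was 12.1% over all genes and 16.4% over the bright genes. SSA4, the stress-induced form of the Hsp70 chaperone, read 12.32, 12.29 and 12.29 with the empty vector and 12.16, 12.10 and 12.12 with GmbHLHm1. All 3 GmbHLHm1 arrays were lower, and the gene fell by 0.17 ± 0.04 (SE) on the log2 scale (adjusted p = 0.0419 with limma) and its signal decreased by 11.4%. The call lay close to the threshold: it held without GmbHLHm1 replicate 1, and without any other 1 array the adjusted p was 0.0736 to 0.171. It was also lost with quantile normalization of the tested genes (0.0634). HSP42, a small heat shock protein that gathers misfolded proteins, measured 13.37, 13.40 and 13.38 against 13.47 on each of the 3 GmbHLHm1 arrays. Those 3 arrays lay above the empty vector arrays, yet the log2 change of 0.09 did not pass (adjusted p = 0.215 with limma).

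The remaining heat shock genes had log2 changes between -0.06 and 0.01. HSP12, whose small protein steadies membranes, and HSP26, a small chaperone, were among the genes nearest the top of the scale, at means of 14.53 ± 0.004 and 14.45 ± 0.02 with the empty vector (SD, n = 3) and log2 changes of -0.04 and -0.01. The HSP12 groups did not overlap, and those of HSP26 did. HSP104, the disaggregase that pulls proteins out of aggregates, had a log2 change of -0.05. Its mitochondrial counterpart HSP78 had -0.06, with an interval of -0.29 to 0.17. HSP78 was the most uneven of the group: it read 12.49, 12.08 and 12.25 in GmbHLHm1 cells, where the empty vector arrays lay between 12.32 and 12.36. SSE2, a nucleotide exchange factor for Hsp70, had a log2 change of 0.01.

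**Figure D3:**
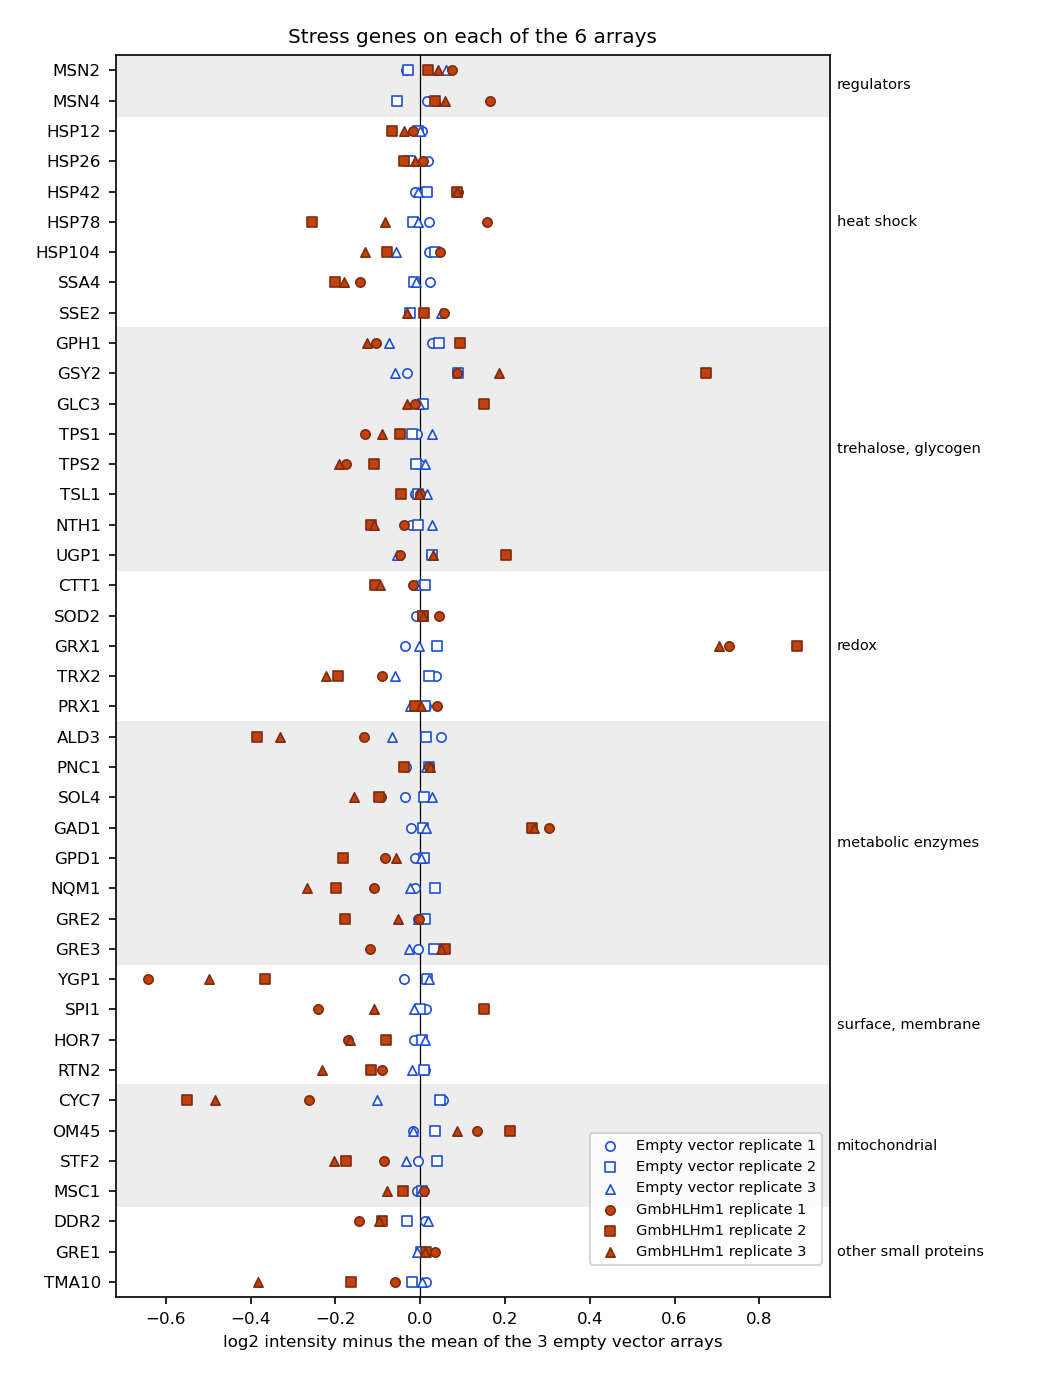
Log2 intensity of each stress gene on each array, as the difference from the mean of the 3 empty vector arrays (x axis), with open symbols for the empty vector and filled symbols for GmbHLHm1. GRX1 and GAD1 stand to the right and YGP1 and CYC7 to the left on all 3 GmbHLHm1 arrays, and GSY2 stands out on GmbHLHm1 replicate 2, where its log2 intensity was 12.08.

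None of the 8 genes for trehalose and glycogen passed limma's test, 1 of them (TPS2) at an unadjusted p under 0.05, and the median log2 change was -0.03. Of the 4 trehalose genes 3 lay lower without overlap, and none passed. All 4 were bright genes, and 29.5% of the bright genes and 13.9% of all genes lay lower in this way. TPS2, the phosphatase that completes trehalose, measured 13.14, 13.13 and 13.15 against 12.96, 13.03 and 12.95. The groups did not overlap, and the log2 change was -0.16 (interval -0.26 to -0.05; adjusted p = 0.0646 with limma, 0.0107 with the trend and robust prior, and 0.0466 without GmbHLHm1 replicate 2). TPS1, the trehalose-6-phosphate synthase, and NTH1, the trehalase that breaks trehalose down, each had a log2 change of -0.09 without overlap between groups. TSL1, a regulatory subunit of the synthase complex, had -0.02.

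Glycogen genes differed more between the GmbHLHm1 cultures than between the groups. GSY2, the main glycogen synthase, read 11.38, 11.50 and 11.35 with the empty vector and 11.49, 12.08 and 11.59 with GmbHLHm1. Replicate 2 stood well above the rest, the groups overlapped, and the log2 change of 0.32 had an interval of -0.03 to 0.66 (adjusted p = 0.221 with limma). GLC3 (the branching enzyme), GPH1 (glycogen phosphorylase) and UGP1 (which makes UDP-glucose for both stores) had log2 changes of 0.04, -0.04 and 0.06. All 4 of these genes were at their highest on GmbHLHm1 replicate 2, the array that was highest of the 6 for 20.9% of all genes. On that array GLC3 read 13.50, GPH1 12.52 and UGP1 12.79, where the highest empty vector values were 13.36, 12.47 and 12.62. The 4 genes were singled out after their values were seen.

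Among the 5 redox genes GRX1 rose and the other 4 did not pass. GRX1, a glutaredoxin that uses glutathione to reduce disulfides, had log2 intensities of 12.66, 12.73 and 12.69 with the empty vector and 13.42, 13.58 and 13.40 with GmbHLHm1. The groups lay far apart relative to their spread, at 12.69 ± 0.04 and 13.47 ± 0.10 (SD, n = 3 per group). GRX1 rose 1.71-fold, by 0.77 ± 0.06 (SE) on the log2 scale (adjusted p = 0.000392 with limma), and passed whichever of the 6 arrays was left out. It was the largest change of the 41.

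TRX2, a cytosolic thioredoxin, measured 13.34, 13.33 and 13.25 against 13.21, 13.11 and 13.08. The GmbHLHm1 arrays were all lower, with a log2 change of -0.17 that did not pass (adjusted p = 0.0973 with limma, and 0.0429 without GmbHLHm1 replicate 1). CTT1, the cytosolic catalase and a standard reporter of Msn2 and Msn4 activity, had a log2 change of -0.07 (interval -0.18 to 0.03) at means of 14.42 ± 0.01 and 14.34 ± 0.05 (SD, n = 3 per group). All 3 GmbHLHm1 arrays were lower, and the CTT1 signal stood only 0.37 log2 units below the brightest gene. The mitochondrial enzymes SOD2 (superoxide dismutase) and PRX1 (peroxiredoxin) had log2 changes of 0.02 and 0.01, with SOD2 higher on all 3 GmbHLHm1 arrays.

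Of the 8 metabolic enzymes GAD1 rose and none fell, with a median log2 change of -0.09. GAD1, which turns glutamate into gamma-aminobutyrate, read 13.62, 13.64 and 13.65 against 13.94, 13.90 and 13.91. The arrays within each group were close together and the groups did not overlap. GAD1 rose 1.21-fold, by 0.28 ± 0.04 (SE) on the log2 scale (adjusted p = 0.00676 with limma), and passed whichever of the 6 arrays was left out, with 0.0458 as the highest adjusted p.

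ALD3, a cytosolic aldehyde dehydrogenase, measured 13.48, 13.45 and 13.37 with the empty vector and 13.30, 13.05 and 13.10 with GmbHLHm1. All GmbHLHm1 arrays were lower, but the log2 change of -0.28 fell short of the threshold (adjusted p = 0.0529 with limma, and 0.00928 without GmbHLHm1 replicate 1). NQM1, a transaldolase, and SOL4, a 6-phosphogluconolactonase, both enzymes of the pentose phosphate pathway, had log2 changes of -0.19 and -0.12 without overlap, and NQM1 passed without GmbHLHm1 replicate 1 (adjusted p = 0.0276 with limma). GPD1, which makes glycerol 3-phosphate for osmoprotection, had -0.11, also without overlap. GRE2 (a methylglyoxal reductase), GRE3 (an aldose reductase) and PNC1 (a nicotinamidase) overlapped between groups, with log2 changes of -0.08, -0.003 and 0.003.

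Of the 4 genes for the cell surface and membranes YGP1 fell, and all 4 had log2 changes below 0. All 4 were bright genes, and 60.6% of the bright genes and 43.3% of all genes had changes below 0. YGP1, a secreted wall glycoprotein made on nutrient limitation, read 13.69, 13.75 and 13.76 with the empty vector and 13.09, 13.37 and 13.24 with GmbHLHm1. The groups were apart by more than the spread within either, at 13.73 ± 0.03 and 13.23 ± 0.14 (SD, n = 3 per group). YGP1 fell by 0.50 ± 0.07 (SE) on the log2 scale (adjusted p = 0.00627 with limma), the largest decrease of the 41, and passed whichever array was left out. RTN2, a reticulon that curves the endoplasmic reticulum, measured 13.69, 13.68 and 13.66 against 13.58, 13.56 and 13.44, lower on every GmbHLHm1 array, with a log2 change of -0.15 (adjusted p = 0.122 with limma). HOR7, a small membrane protein, had -0.14 without overlap. SPI1, a wall protein anchored by lipid, overlapped between groups, at 13.21, 13.60 and 13.34 in GmbHLHm1 cells and 13.44 to 13.47 in the controls.

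Of the 4 genes with mitochondrial products CYC7 fell and none rose. CYC7, the form of cytochrome c favoured at low oxygen and under stress, read 12.30, 12.29 and 12.14 against 11.98, 11.69 and 11.76. The groups did not overlap, and CYC7 fell by 0.43 ± 0.09 (SE) on the log2 scale (adjusted p = 0.0202 with limma). The call was lost without empty vector replicate 1, without empty vector replicate 2 and without GmbHLHm1 replicate 3, with adjusted p = 0.0939, 0.0827 and 0.0643. STF2, named for stabilising an inhibitor of ATP synthase, measured 13.59, 13.63 and 13.56 against 13.51, 13.42 and 13.39. The GmbHLHm1 arrays were lower, with a log2 change of -0.15 (adjusted p = 0.0988 with limma, and 0.0447 without GmbHLHm1 replicate 1). OM45, an outer membrane protein, had a log2 change of 0.15, with every GmbHLHm1 array above every control. MSC1 had -0.04.

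The 3 other small proteins did not pass. TMA10, a ribosome-associated protein related to STF2, measured 13.77, 13.74 and 13.76 against 13.70, 13.59 and 13.37, so the GmbHLHm1 arrays were lower but scattered (log2 change -0.20, adjusted p = 0.172 with limma). DDR2, one of the first genes used to define the stress response element, read 14.44, 14.39 and 14.44 against 14.28, 14.33 and 14.33. The DDR2 groups did not overlap, with a log2 change of -0.11 (adjusted p = 0.157 with limma). GRE1, a hydrophilin and the brightest of the 41 genes, had a log2 change of 0.02, with every GmbHLHm1 array above every control.

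The 3 GmbHLHm1 cultures were not alike across these genes. In 26 of the 41 genes replicate 1 was the highest of its group, in 13 replicate 2 and in 2 replicate 3. Over all genes the shares were 41.3%, 33.7% and 25.03%. Replicate 1 was the highest of its group for 7 of 7 heat shock genes, and replicate 2 for 6 of 8 trehalose and glycogen genes. These orders describe single cultures and were noticed after the values were seen.

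Many of the stress genes have a sister gene with a related product, and 22 such pairs were set side by side. In 17 pairs the sister lay outside the 41, and in 5 both genes were among them. Over all genes the share past the test was 12.1%. In 16 pairs neither gene passed, in 3 only the stress gene, in 2 only the partner, and in 1 both. That 1 pair was cytochrome c: CYC7 fell by 0.43, whereas CYC1, the main form in respiring cells, rose by 0.55 ± 0.06 (SE; adjusted p = 0.00149 with limma). The 95% confidence intervals ran from 0.41 to 0.69 for CYC1 and from -0.63 to -0.23 for CYC7.

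Of the glutaredoxins GRX1 rose by 0.77, and GRX2, which carries most of the cell's glutaredoxin activity, did not pass, with a log2 change of -0.12 (interval -0.22 to -0.02; adjusted p = 0.122 with limma). SPI1 had a log2 change of -0.07 (interval -0.29 to 0.16), and its sister SED1, a major wall protein, fell by 0.74 ± 0.07 (SE; adjusted p = 0.00113 with limma). Beside YGP1 stood SPS100, a spore wall gene, with -0.19 (adjusted p = 0.0587). In these pairs the 95% intervals did not overlap, and the difference within a pair was not itself tested. ALD2, the tandem copy of ALD3, fell by 0.23 (adjusted p = 0.0241 with limma, and 0.0627 to 0.1002 without any single empty vector array or GmbHLHm1 replicate 3). The sequences of ALD2 and ALD3 are close, so their probe sets can share signal. Next to SSA4 the log2 change of SSA3 was -0.04 (adjusted p = 0.63).

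**Figure D4:**
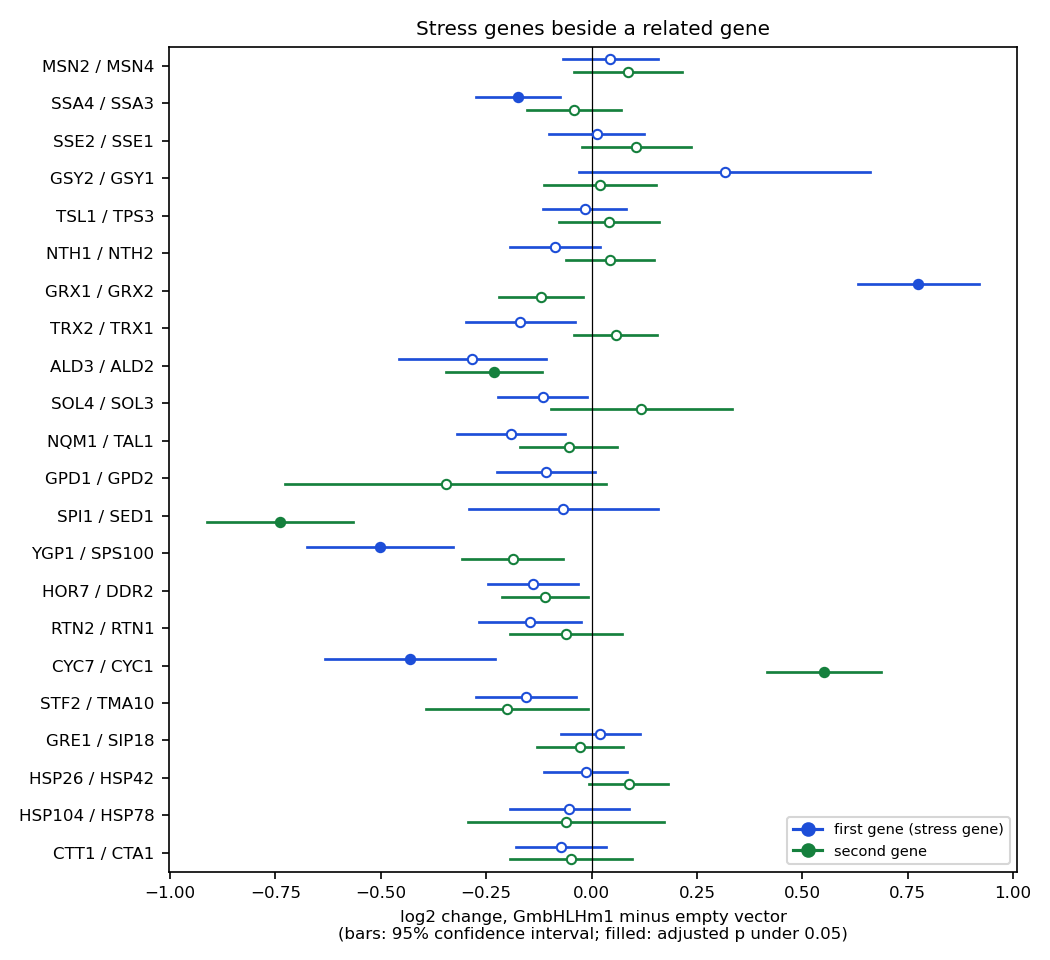
Log2 change (x axis, GmbHLHm1 minus empty vector) with 95% confidence intervals for 22 pairs of a stress gene (blue) and a related gene (green; in 5 pairs also a stress gene), filled where past the test. CYC7 and CYC1 lie on opposite sides of 0 at -0.43 and 0.55, and GRX1 at 0.77 stands apart from GRX2 at -0.12.

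Genes of the surrounding pathways were read in 6 further lists. Of these 127 genes 6 rose and 7 fell, and 2 of these 13, CPR6 and TSA2, passed whichever array was left out. In the background 12.1% of all genes passed, 7.45% higher and 4.64% lower. Of 24 tested genes of the protein kinase A pathway and its neighbours 1 rose and none fell, with a median log2 change of -0.005. That gene was BMH1, a 14-3-3 protein of a family that holds phosphorylated Msn2 in the cytoplasm, up by 0.29 ± 0.05 (SE; adjusted p = 0.0138 with limma, and 0.0722 without empty vector replicate 1 or 0.0675 without empty vector replicate 3). Of 22 genes of the high-osmolarity (HOG) pathway 1 rose and none fell (median 0.01). It was SSK22, a kinase at its head, up by 0.30 (adjusted p = 0.0467 with limma, and 0.0677 to 0.144 without any array other than GmbHLHm1 replicate 3).

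Of 18 genes for the heat shock factor Hsf1 and chaperones outside the 41, 2 rose and none fell, with a median log2 change of 0.04. SSA2, an Hsp70 made in unstressed cells, rose by 0.63 ± 0.13 (SE), from 11.41, 11.47 and 11.41 to 12.08, 11.77 and 12.32. Its groups lay apart (adjusted p = 0.0217 with limma), but without any 1 empty vector array the adjusted p was 0.0715 to 0.0917. CPR6, a cyclophilin that works with Hsp90, rose by 0.28 ± 0.04 (SE; adjusted p = 0.00646 with limma). Of 17 further trehalose and glycogen genes 2 fell and none rose (median 0.04). GAC1, which brings a phosphatase to glycogen synthase, fell by 0.37, and SGA1, a glucoamylase of sporulation, by 0.33. Their adjusted p was 0.0117 and 0.0298 with limma. GAC1 did not pass without empty vector replicate 1 or 3 (0.0571 and 0.0583). SGA1 did not pass without any of empty vector replicates 1 and 3 and GmbHLHm1 replicates 1 and 3, where its adjusted p reached 0.126.

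Of 20 redox genes outside the 41, 1 fell and none rose (median -0.03). TSA2, a peroxiredoxin, went from 10.67, 10.69 and 10.63 to 9.89, 10.13 and 10.04, and all GmbHLHm1 arrays were lower. TSA2 fell by 0.65 ± 0.07 (SE) on the log2 scale (adjusted p = 0.00134 with limma). YAP1, the factor behind much of the peroxide response, had a log2 change of -0.03. Among 26 other genes of the stress response 2 rose and 4 fell (median -0.07). DDR48, a DNA damage and heat shock responsive gene, rose by 0.31 and HXK1, a hexokinase, by 0.17, while MOH1 fell by 0.37 and RTC3 by 0.29. The adjusted p of these 4 was 0.0145, 0.0441, 0.0145 and 0.0203 with limma. HXK1 did not pass in any fit that left out an array. DDR48 and MOH1 did not pass without empty vector replicate 1 or 3, where they reached 0.0656 and 0.0665. RTC3 did not pass without any single empty vector array or GmbHLHm1 replicate 3, and reached 0.0867.

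**Figure D5:**
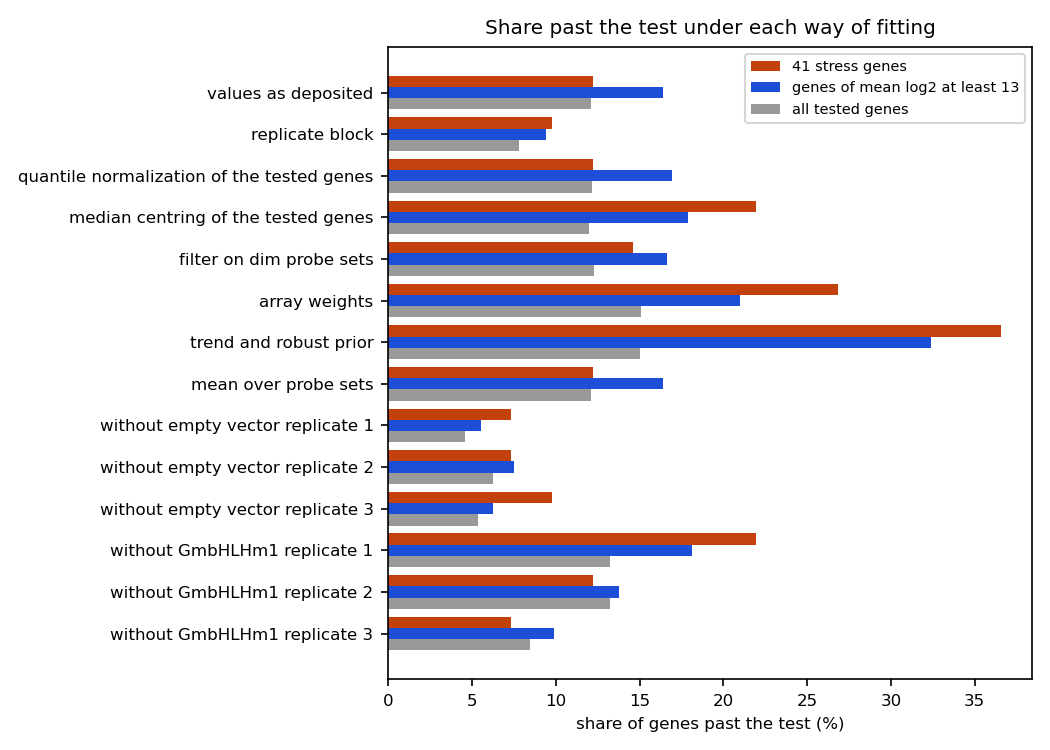
Share of genes past limma's test (x axis, percent; bars start at 0) for the 41 stress genes, the 414 bright genes and all tested genes under each way of fitting. The share of the stress genes runs from 7.32% without empty vector replicate 1, empty vector replicate 2 or GmbHLHm1 replicate 3 to 36.6% with the trend and robust prior, and the bright genes reach 32.4% in that same fit.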

How the data were processed

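The submitters' processing notes name RMA, which corrects background, brings the arrays' distributions together by quantiles and summarises each probe set. The deposited table holds these values as intensities, and their range shows a linear scale; log2 was taken here. Software is not given in the sources used here, and RMA hides a shift shared by all transcripts. Probe sets were matched to S. cerevisiae genes by gene identifier (assembly R64, used for names only), and a gene with several probe sets was read from the one of highest mean signal. The 95th percentile of 1746 probe sets without a yeast gene identifier served as background.

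All 5449 genes were fitted with limma 3.58.1 in R 4.3.3 (2 groups of 3, no block, no filter), tested on simulated data, and drawn with matplotlib 3.10.9. Array values were named for MSN2, MSN4, the stress genes past the test and the 2 largest changes per role. Of each further list up to 2 highest and 2 lowest genes past the test were named, with array values for SSA2 and TSA2 only. Other genes named for an array value were chosen after seeing it. The members, lists and tests were chosen with earlier results of these data known. LAP4 was read as APE1. The number of arrays limits the precision.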

Additional observations from a re-analysis of the deposited data

How the results depend on the processing

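Of the 41 genes, 3 (GRX1, GAD1 and YGP1) passed limma's test under all 13 alternatives and 25 under none, and no called gene changed direction. How many of all genes passed under every alternative, or under none, was not counted. The 5 calls among the 41 genes became 9 with median centring, 11 with array weights, 15 with the trend and robust prior together, and 3 at a threshold of 0.01. In the first 3 of these fits 12.0%, 15.1% and 15.0% of all genes passed, and 17.9%, 21.0% and 32.4% of the bright genes. Leaving out 1 array gave 3 to 9. Over all genes the 659 calls became 427 with the replicate block, 243 at the threshold of 0.01, and 251 to 723 without 1 array, and they were 823 with array weights and 820 with the trend and robust prior. The balance of all calls, 406 higher and 253 lower, was 331 and 332 with quantile normalization of the tested genes and 343 and 310 with median centring. Deviations of same-numbered arrays correlated at -0.07, -0.08 and 0.14, so the numbers were not taken as pairs. With the replicate block 4 of the 41 genes passed, and SSA4 did not (adjusted p = 0.103); SSA4 also did not pass with quantile normalization (0.0634). Of the 41 genes 11 that did not pass changed sign under some alternative, and the value of opposite sign was at most 0.0547 in size on the log2 scale. The filter on dim probe sets and the mean over probe sets gave 6 and 5 calls. With the filter 12.3% of the 5368 genes kept and 16.7% of the bright genes passed. With the mean over probe sets these shares were 12.1% of all genes and 16.4% of the bright genes. Why these counts moved was not tested beyond what each alternative changes.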
